A study of Homo sapiens with 30 samples.

Results

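Aminoacyl-tRNA synthetases are the enzymes that load each transfer RNA with its amino acid. A list of 32 genes was followed here: 19 cytosolic enzymes or enzyme subunits, 10 mitochondrial enzymes and 3 scaffold proteins of the multi-synthetase complex. A gene was measured where a probe set of the array was annotated with that gene's symbol and no other. This held for 25 of the 32 genes, with 36 probe sets, and all 25 genes had a probe set bright enough to be tested, 16 of them cytosolic, 8 mitochondrial and 1 the scaffold gene AIMP1. Each gene was followed through 1 probe set, its brightest among those with a name not ending in _s_at or _x_at, which were taken only for lack of others, and 8103 genes were tested in all. FARSB, AIMP2, EEF1E1 and VARS2 had no probe set annotated with their symbol alone and are not analysed here. The same holds for MARS1, QARS1 and TARS2, whose probe sets also name a microRNA gene.

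RNA came from the lymphoblastoid cell lines GM15510 and GM15036, B cells of a donor each that Epstein-Barr virus has immortalised, kept as suspension cultures. Both lines were irradiated from a caesium-137 source at 1, 2.5, 5, 7.5 or 10 cGy, with 3 arrays for each line and dose, 30 arrays in all. The sample labels give the dose in cGy, while the design text writes these numbers with Gy; cGy was kept here. No unirradiated cells were analysed here, so each dose is set against 1 cGy of its own line, a change shared by all doses cannot be seen, and when RNA was isolated after exposure is not given in these sources. Whether the 3 arrays of a group are separate cultures is not stated. The p-values therefore rest on a spread between arrays that may be technical, and precision is limited by there being 3 in each group.

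Overall brightness varied among the arrays. It is the trimmed mean of an array's unscaled signals and ranged from 14.1 to 112 and averaged between 18.7 and 89.1 by group. By group mean, the dimmest were GM15510 at 2.5 cGy (18.7), GM15036 at 10 cGy (22.1), GM15036 at 7.5 cGy (32.4) and GM15510 at 5 cGy (39.0). For GAPDH, a control for RNA integrity, the log2 ratio of the 3-prime over the 5-prime probe set averaged 2.84 at 10 cGy and 2.51 at 1 cGy in GM15036, and 2.45 at 10 cGy and 2.47 at 1 cGy in GM15510. The same ratio of ACTB, a second such control, averaged 5.16 ± 0.0964 at 10 cGy and 3.75 ± 0.490 at 1 cGy in GM15510 (SD, n = 3 each), and 5.20 at 10 cGy and 4.48 at 1 cGy in GM15036. The part of RNA quality in the 10 cGy differences below was not tested. Of 10 B cell markers, 8 were bright enough to be tested, among them MS4A1, CD79A and PAX5, against 1 of 8 markers of T and NK cells and 0 of 6 monocyte markers. So were 5 of 5 plasma cell markers, 2 of 5 fibroblast markers (COL1A1 and COL1A2) and 1 of 4 erythroid markers (HBB). The T and NK marker was CD3E, which was higher at 10 cGy than at 1 cGy in GM15036 by 1.36 on the log2 scale. Among the B cell markers at 10 cGy, HLA-DRA fell in GM15036 (-1.16), CD74 fell in GM15510 (-0.41), and PAX5 rose in GM15510 (0.61) and in GM15036 (1.00).

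Cytosolic synthetases supply the ribosomes that translate nuclear genes, and a separate set of nuclear-encoded enzymes serves translation inside mitochondria; GARS1 and KARS1 each make both forms. Several cytosolic enzymes, among them EPRS1, IARS1, KARS1, LARS1 and RARS1, are held together in the multi-synthetase complex by scaffold proteins such as AIMP1. In mammalian cells short of amino acids or under stress of the endoplasmic reticulum, the transcription factor ATF4 raises transcription of many cytosolic synthetase genes through a C/EBP-ATF response element, and interferon gamma raises that of WARS1.

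The promoters of the genes are shown because this element marks the known common control of the family. In RefSeq promoter windows of assembly GRCh38.p14, from 250 bases before to 50 bases after each annotated start, the letters TGATGNAAN were searched on both strands. At least 1 window was given for 28 of the 32 genes, and 8 of the 28 held a match (28.6%), against 4.45% of the 27305 genes with a window. The 7 matches of measured genes and that of MARS1 are given 5′ to 3′ on the strand of the gene, with the matched bases in capitals.
AARS1, chr16:70289676-70289704: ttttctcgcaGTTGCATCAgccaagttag
CARS1, chr11:3057408-3057436: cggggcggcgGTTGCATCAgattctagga
GARS1, chr7:30594834-30594862: ttacgcggcgATTTCATCAtgctccgagc
IARS1, chr9:92293693-92293721: ttttcagcgcGTTGCATCAcctccgtgcg
MARS1, chr12:57488053-57488081: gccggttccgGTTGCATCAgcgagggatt
NARS1, chr18:57621804-57621832: ctacgctctcTGATGCAACgccggaatcg
TARS1, chr5:33440956-33440984: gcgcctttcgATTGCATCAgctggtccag
YARS2, chr12:32756076-32756104: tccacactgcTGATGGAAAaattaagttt
The same letters of the element, TGATGCAAC on either strand, were found in AARS1, CARS1, IARS1, MARS1 and NARS1, while GARS1, TARS1 and YARS2 had other bases at the open positions. YARS2 was the only mitochondrial enzyme with a match. A match is a description of these letters and does not show that a factor bound there.

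TARS1 and NARS1 are given with the whole window, since both hold the element within the bases just after the start and both changed at 10 cGy in GM15510, in opposite directions.
TARS1, chr5:33440715-33441014, plus strand: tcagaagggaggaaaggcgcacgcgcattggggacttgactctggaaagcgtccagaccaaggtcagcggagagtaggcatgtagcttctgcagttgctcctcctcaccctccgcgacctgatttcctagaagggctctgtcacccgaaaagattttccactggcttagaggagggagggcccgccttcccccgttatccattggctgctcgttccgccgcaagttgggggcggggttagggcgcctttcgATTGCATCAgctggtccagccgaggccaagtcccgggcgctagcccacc
NARS1, chr18:57621787-57622086, minus strand: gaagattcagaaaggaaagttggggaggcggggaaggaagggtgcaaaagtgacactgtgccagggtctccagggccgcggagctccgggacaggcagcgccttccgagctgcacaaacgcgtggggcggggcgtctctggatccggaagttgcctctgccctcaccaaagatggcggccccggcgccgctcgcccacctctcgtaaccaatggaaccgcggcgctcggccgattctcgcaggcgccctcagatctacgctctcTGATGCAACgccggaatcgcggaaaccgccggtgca
Counted from 1 at the annotated start, the capitals span bases 2 to 10 in TARS1 and 15 to 23 in NARS1. RefSeq has another TARS1 window, further upstream, without a match.

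Values below are array signals brought to a common brightness, and a difference is the mean of one group minus that of another on the scale of log2(signal + 4), with its standard error from a limma fit to all 30 arrays. A gene rose or fell where the Benjamini-Hochberg adjusted p over all 13331 probe sets tested was under 0.05. Comparisons within a line share its 1 cGy arrays. Over all doses, 9 of the 25 genes changed in a line at 1 dose or more, 6 in GM15510 and 5 in GM15036, and only NARS1 and RARS1 did so in both. Of all 8103 genes, 24.0% changed in either line, 15.6% in GM15510, 13.0% in GM15036 and 4.55% in both. The others that changed were TARS1, KARS1, SARS1 and IARS2 in GM15510 and EPRS1, GARS1 and HARS1 in GM15036.

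**Figure D1:**
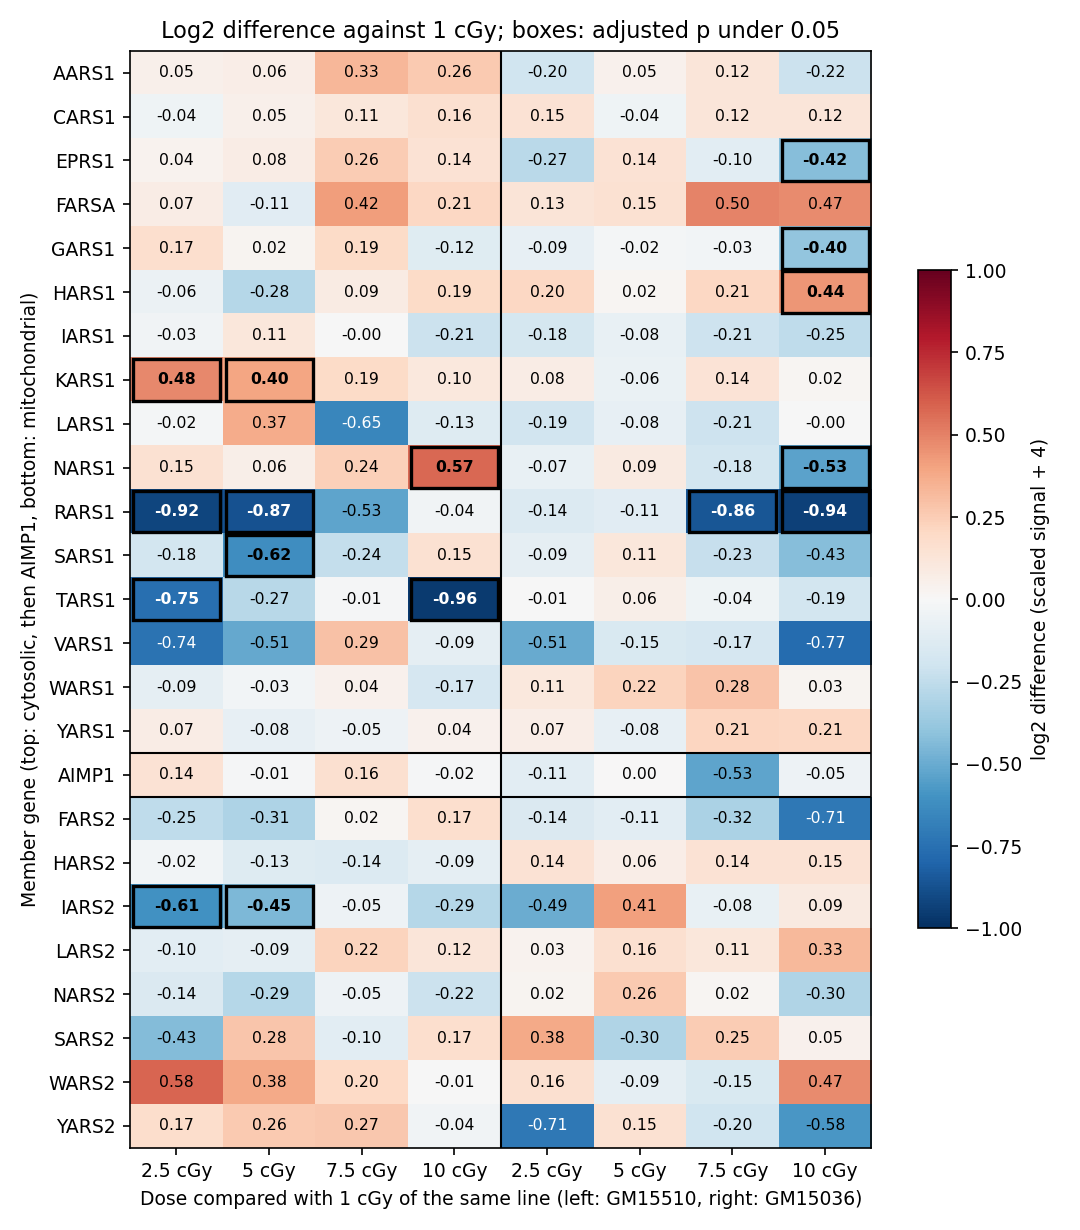
Log2 difference of each of the 25 genes against 1 cGy of the same line, by dose, with GM15510 on the left and GM15036 on the right; cytosolic enzymes are on top, then AIMP1, then mitochondrial enzymes, and boxes mark an adjusted p under 0.05. The darkest boxed cells are RARS1, at 2.5 and 5 cGy in GM15510 and the top 2 doses in GM15036, and TARS1 at 2.5 and 10 cGy in GM15510.

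In GM15510 at 10 cGy, TARS1 fell and NARS1 rose. Of the 24 genes other than TARS1, NARS1 was the 1 that changed; over the 8103 genes tested 6.16% changed, 3.15% upward and 3.01% downward. TARS1, which loads threonine, had signals of 458, 457 and 467 at 10 cGy against 886, 910 and 900 at 1 cGy. All 3 arrays at 10 cGy lay far below all 3 at 1 cGy, and the arrays of each dose differed little. The log2 difference was -0.96 ± 0.08 (SE, n = 3 each), a signal ratio of 0.515 on the scale of log2(signal + 4). This fall was named when the gene list was drawn up, so it is given as a description without a p-value.

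TARS1 did not move in 1 direction with dose in GM15510. Its signals were 562, 556 and 484 at 2.5 cGy, 710, 761 and 758 at 5 cGy, and 908, 914 and 848 at 7.5 cGy. The 2.5 cGy arrays lay below those of 1 cGy and the 7.5 cGy arrays overlapped them. The difference against 1 cGy was -0.75 ± 0.08 at 2.5 cGy (adjusted p = 2.19e-07), -0.27 at 5 cGy and -0.01 at 7.5 cGy. The 2.5 cGy p-value draws on the same 1 cGy arrays as the fall named beforehand, so it is no independent evidence. Mean brightness in GM15510 was 18.7 at 2.5 cGy and 89.1 at 10 cGy. Its part in the TARS1 values was not tested beyond the alternative settings. The 2.5 cGy fall of TARS1 passed all 10 alternative settings and each of the 30 fits without an array.

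In GM15036, TARS1 was 318, 351 and 351 at 10 cGy against 415, 398 and 351 at 1 cGy, and the groups met at 351. The difference was -0.19 ± 0.08 (adjusted p = 0.153). The size of this value depended on scaling: with each unscaled array centred on its median it was -0.82 (adjusted p = 2.84e-04). Where centring followed scaling it was -0.42 (adjusted p = 0.00737). It passed under these 2 of the 10 alternative settings.

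NARS1, which loads asparagine, had signals of 1391, 1599 and 1554 at 10 cGy against 1001, 1092 and 956 at 1 cGy in GM15510. In GM15036 it had 799, 617 and 818 at 10 cGy against 1005, 1127 and 1087 at 1 cGy. In neither line did the groups overlap, and the arrays at 10 cGy were the higher ones in GM15510 and the lower ones in GM15036. The log2 difference was 0.57 ± 0.10 in GM15510 (adjusted p = 2.92e-04) and -0.53 ± 0.10 in GM15036 (adjusted p = 3.96e-04). The difference between the lines in this effect was 1.11 ± 0.14 (adjusted p = 5.25e-06). Between these doses, NARS1 averaged 1132 ± 143, 1061 ± 110 and 1200 ± 30.9 (SD, n = 3 each) at 2.5, 5 and 7.5 cGy in GM15510, and 1021 ± 77.6, 1139 ± 21.5 and 942.8 ± 19.9 in GM15036; neither line passed the test against 1 cGy at any of those doses. Both 10 cGy calls passed all 10 alternative settings and all 30 fits without an array.

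**Figure D2:**
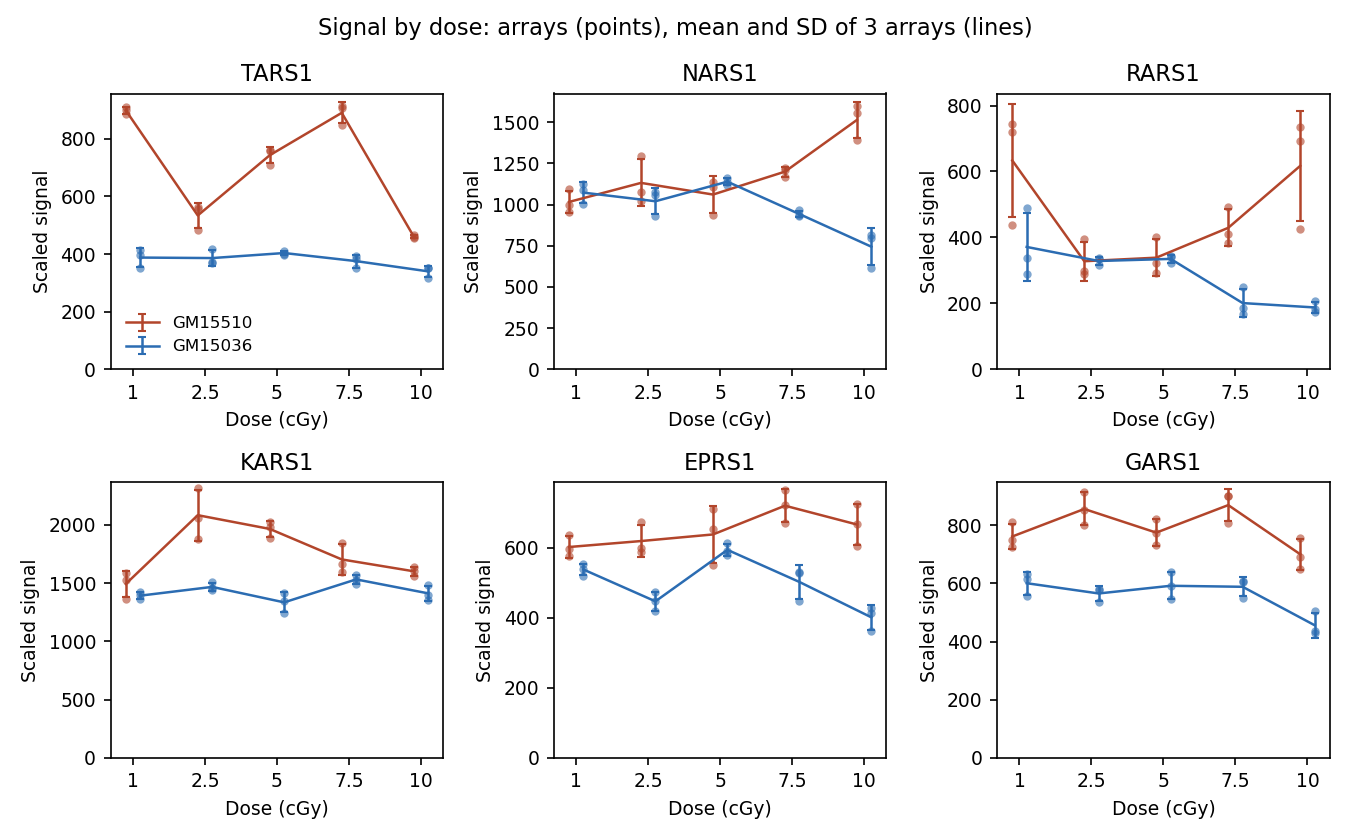
Scaled signal by dose in cGy for 6 genes, with points for arrays and lines for the mean and SD of 3 arrays, GM15510 in red and GM15036 in blue. TARS1 in GM15510 is low at 2.5 and 10 cGy, NARS1 parts between the lines at 10 cGy, and KARS1 is highest at 2.5 and 5 cGy in GM15510.

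At 10 cGy in GM15036, NARS1, RARS1, EPRS1 and GARS1 fell and HARS1 rose, 5 of 25 genes. All are listed as cytosolic, and GARS1 also makes a mitochondrial form. In that comparison 11.7% of all genes changed, 4.05% upward and 7.66% downward. The median difference was -0.05 over the 25 genes and 0.03 over all genes tested. RARS1, which loads arginine and is a complex member, had 183, 206 and 174 at 10 cGy against 288, 488 and 337 at 1 cGy. The 1 cGy arrays were spread widely and all lay above those at 10 cGy. The difference was -0.94 ± 0.19 (adjusted p = 9.39e-04). At 7.5 cGy RARS1 was also low, at 185, 169 and 250, with a difference of -0.86 ± 0.19 (adjusted p = 0.00778). It was the 1 gene of 25 that changed at that dose, where 3.18% of all genes did. Without replicate b at 1 cGy, the highest of its arrays, the 7.5 cGy difference was -0.64 (adjusted p = 0.108), and without replicate b at 7.5 cGy it was -0.74 (adjusted p = 0.0708).

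EPRS1, whose protein joins the enzymes for glutamate and proline, had 362, 429 and 414 at 10 cGy against 521, 554 and 541 at 1 cGy in GM15036. GARS1, which loads glycine, had 435, 428 and 506 at 10 cGy against 615, 631 and 555 at 1 cGy. For both genes every array at 10 cGy was below every array at 1 cGy. The differences were -0.42 ± 0.10 for EPRS1 (adjusted p = 0.00286) and -0.40 ± 0.09 for GARS1 (adjusted p = 0.00246). EPRS1 has 2 other tested probe sets, which gave -0.37 and -0.01 and did not pass. Without the 5 dimmest arrays, which leaves 1 array at 10 cGy in GM15036, EPRS1 gave -0.38 (adjusted p = 0.102) and GARS1 gave -0.24 (adjusted p = 0.262).

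HARS1, which loads histidine, had 294, 311 and 324 at 10 cGy against 218, 255 and 210 at 1 cGy in GM15036. The 3 arrays at 10 cGy lay above those at 1 cGy. The difference of 0.44 ± 0.14 (adjusted p = 0.0343) was the least stable of the calls at this dose: it was lost on leaving out any array of 1 or 10 cGy in GM15036 but replicate b at 1 cGy, and centring each unscaled array on its median turned it to -0.19. HARS2, the mitochondrial enzyme for the same amino acid, starts 84 bases away on the opposite strand, so that their promoter windows share 184 bases. It had 0.15 in the same comparison and did not pass. The HARS2 window is shown because it holds the start sites of both genes and no match to the element.
HARS2, chr5:140691205-140691504, plus strand: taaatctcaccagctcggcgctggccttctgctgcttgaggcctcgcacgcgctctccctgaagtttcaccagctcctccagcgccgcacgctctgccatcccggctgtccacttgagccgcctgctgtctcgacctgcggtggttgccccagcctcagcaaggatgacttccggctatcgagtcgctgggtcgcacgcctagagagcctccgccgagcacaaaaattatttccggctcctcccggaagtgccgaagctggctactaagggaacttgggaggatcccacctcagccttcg

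RARS1 also fell in GM15510, at other doses. Its signals there were 297, 396 and 291 at 2.5 cGy and 401, 323 and 292 at 5 cGy, against 720, 437 and 743 at 1 cGy. Every array at 2.5 and 5 cGy was below the lowest at 1 cGy. The differences were -0.92 ± 0.19 at 2.5 cGy (adjusted p = 0.00181) and -0.87 ± 0.19 at 5 cGy (adjusted p = 0.00537). At 7.5 cGy the signals were 412, 384 and 492, and at 10 cGy they were 735, 425 and 691, which overlapped those at 1 cGy. The difference at 10 cGy was -0.04. Without replicate 1 or replicate 3 at 1 cGy, the higher arrays, the 5 cGy difference was -0.76 (adjusted p = 0.0513) or -0.73 (adjusted p = 0.0609).

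The 4 groups in which RARS1 fell were the 4 with the lowest mean brightness. With brightness as a covariate, the RARS1 difference was -1.06 at 10 cGy in GM15036 (adjusted p = 0.0316), -0.94 at 7.5 cGy in GM15036 (adjusted p = 0.0390), -1.05 at 2.5 cGy in GM15510 (adjusted p = 0.0911) and -0.94 at 5 cGy in GM15510 (adjusted p = 0.0232). Without the 5 dimmest arrays, which leaves 1 array at each of these, assumed to vary like the other groups, it was -1.04 at 10 cGy in GM15036 (adjusted p = 0.0234) and -1.04 at 2.5 cGy in GM15510 (adjusted p = 0.0264).

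**Figure D3:**
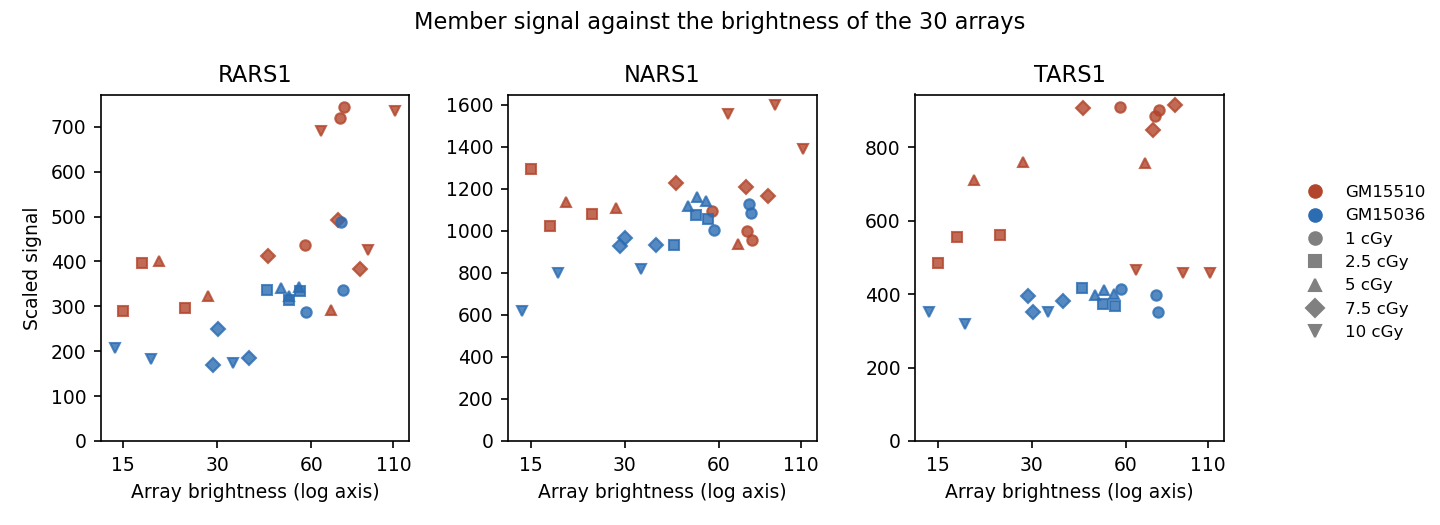
Scaled signal of RARS1, NARS1 and TARS1 in the 30 arrays against array brightness on a log axis, with GM15510 in red, GM15036 in blue and the dose as the marker shape. RARS1 is no higher than 401 in every array dimmer than 40. TARS1 in GM15510 is lowest in the 10 cGy arrays, whose brightness ran from 64.5 to 111.5.

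At 2.5 cGy in GM15510, TARS1, RARS1 and IARS2 fell and KARS1 rose, 4 of 25 genes against 9.18% of all genes. The 4 include TARS1, whose value shares its 1 cGy arrays with the fall named beforehand. At 5 cGy, RARS1, SARS1 and IARS2 fell and KARS1 rose, again 4 of 25, against 3.92% of all genes. KARS1, which loads lysine in cytosol and mitochondria, averaged 2084 ± 220 at 2.5 cGy and 1966 ± 69.3 at 5 cGy, against 1493 ± 114 at 1 cGy (SD, n = 3 each). The differences were 0.48 ± 0.08 (adjusted p = 2.25e-04) and 0.40 ± 0.08 (adjusted p = 0.00305). A second KARS1 probe set gave -0.06 and -0.11 and did not pass. Centring each unscaled array on its median turned the KARS1 differences to -0.30 and -0.023.

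IARS2, the mitochondrial enzyme for isoleucine, averaged 154.8 ± 25.6 at 2.5 cGy and 171.4 ± 11.6 at 5 cGy, against 236.2 ± 20.8 at 1 cGy in GM15510. The differences were -0.61 ± 0.13 (adjusted p = 0.00243) and -0.45 ± 0.13 (adjusted p = 0.0406), and leaving out any of the 6 arrays of 1 and 5 cGy ended the 5 cGy call. SARS1, which loads serine, averaged 103.7 ± 20.8 at 5 cGy against 159.8 ± 15.6 at 1 cGy, a difference of -0.62 ± 0.15 (adjusted p = 0.0138). Without GM15510 replicate 1 at 5 cGy it was -0.46 (adjusted p = 0.142), and without replicate 3 at 1 cGy -0.54 (adjusted p = 0.0970). With brightness as a covariate, IARS2 at both doses, KARS1 at both doses and SARS1 at 5 cGy did not pass.

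In the remaining comparisons no member passed limma's test. At 7.5 cGy in GM15510, 0 of 25 genes passed, 7 had an unadjusted p under 0.05, and 1.79% of all genes changed. In GM15036, 0 genes passed at 2.5 cGy, where 3 had an unadjusted p under 0.05 and 0.58% of all genes changed. At 5 cGy in GM15036, 0 passed, 1 had an unadjusted p under 0.05 and 0.123% of all genes changed.

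Some genes differed among the 5 doses without passing at a single one. A test with 1 F statistic for the doses of a line together passed for 8 of 25 genes in GM15510 (21.4% of all genes) and 7 of 25 in GM15036 (16.3% of all genes). The GM15510 count includes TARS1, whose 10 cGy fall was named beforehand. GARS1, IARS2, NARS1 and RARS1 passed in both lines. LARS1, the leucine enzyme of the complex, passed in GM15510 (adjusted p = 0.00509), with mean signals of 128.5 ± 14.2, 127 ± 19.9, 167.5 ± 20.6, 84.32 ± 31.2 and 118.8 ± 27.7 at 1, 2.5, 5, 7.5 and 10 cGy (SD, n = 3 each). Its highest mean was at 5 cGy and its lowest at 7.5 cGy. In GM15036 the mitochondrial enzymes YARS2 for tyrosine (adjusted p = 0.00867) and NARS2 for asparagine (adjusted p = 0.0359) passed. YARS2 averaged 114.9 ± 22.7, 69.15 ± 16.6, 126.8 ± 2.48, 102.2 ± 35.3 and 75.41 ± 16.1 from 1 to 10 cGy. NARS2 averaged 83.92 ± 7.67, 85.15 ± 0.315, 101.2 ± 5.86, 85.10 ± 3.96 and 67.34 ± 3.98. IARS2 in GM15036 was lowest at 2.5 cGy (142.0 ± 24.4) and highest at 5 cGy (266.0 ± 2.85), against 200.3 ± 22.9 at 1 cGy.

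The dose effects of the lines were also compared directly, as the GM15510 difference minus the GM15036 difference. An F test of this interaction over the 4 doses passed for EPRS1, IARS2, KARS1, NARS1, RARS1, SARS1 and TARS1, 7 of 25 genes against 20.1% of all genes. The TARS1 call includes the fall named beforehand and is a description. At 10 cGy, NARS1, EPRS1 and RARS1 passed among the 24 genes other than TARS1, against 8.07% of all genes. NARS1 is given above. EPRS1 differed by 0.57 ± 0.14 (adjusted p = 0.00658) and RARS1 by 0.90 ± 0.27 (adjusted p = 0.0324). The RARS1 difference was lost in 6 of the 30 fits without an array, most of all without GM15510 replicate 2 at 1 cGy (adjusted p = 0.154), and under 4 of the 10 alternative settings. TARS1 differed by -0.77 ± 0.12, a value that rests on the fall named beforehand; centring each unscaled array on its median gave -0.09.

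At 2.5 cGy the 1 gene of 25 was TARS1, with -0.74 ± 0.12 (adjusted p = 2.67e-04), against 2.83% of all genes. This TARS1 value shares its GM15510 arrays of 1 cGy with the fall named beforehand. At 5 cGy IARS2 differed by -0.86 ± 0.18 (adjusted p = 0.0161) and KARS1 by 0.46 ± 0.12 (adjusted p = 0.0439), 2 of 25 against 0.802% of all genes. The IARS2 value was lost without GM15510 replicate 2 at 1 cGy (adjusted p = 0.0508) and without GM15036 replicate b at 1 cGy (adjusted p = 0.0502). The KARS1 value passed in 11 of the 30 fits without an array and under 3 of the 10 alternative settings. The other KARS1 probe set gave 0.03 and did not pass. At 7.5 cGy 0 of 25 passed, 4 had an unadjusted p under 0.05, and 3.23% of all genes passed.

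The 6 measured members of the multi-synthetase complex, EPRS1, IARS1, KARS1, LARS1, RARS1 and AIMP1, showed no direction common to all doses against 1 cGy. In GM15036 at 10 cGy, 2 of 6 fell and 0 rose, where 11.7% of all genes changed. Their differences ran from -0.94 for RARS1 to 0.02 for KARS1, with a median of -0.15. At 2.5 cGy in GM15510, RARS1 fell and KARS1 rose, where 9.18% of all genes changed. The extremes were -0.92 and 0.48 and the median was 0.01. In GM15510 at 10 cGy, 0 of 6 passed limma's test, against 6.16% of all genes, and the differences lay between -0.21 and 0.14. IARS1, the isoleucine enzyme, ranged from -0.25 to 0.11 over all 8 dose comparisons and passed in none. Averaged over doses, 4 of the 6 were higher and 1 lower in GM15510 than in GM15036, with a median of 0.30. Over all genes 20.2% were higher and 28.5% lower. AIMP1 was counted among the higher ones by its dimmer probe set, and the other gave -0.23.

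Cytosolic and mitochondrial enzymes were set side by side, with GARS1 and KARS1, which make both forms, counted as cytosolic. In GM15036 at 10 cGy, 5 of 16 cytosolic and 0 of 8 mitochondrial genes changed, against 11.7% of all genes, with medians of -0.20 and 0.07. At 10 cGy in GM15510, 2 of 16 and 0 of 8 changed, against 6.16% of all genes, with medians of 0.07 and -0.02. The 2 include TARS1, whose fall was named beforehand. At 2.5 cGy in GM15510, 3 of 16 and 1 of 8 changed, against 9.18% of all genes, with medians of -0.03 and -0.12. The 3 also include TARS1, whose value shares its 1 cGy arrays with that fall. At 5 cGy in GM15510, 3 of 16 and 1 of 8 changed, against 3.92% of all genes. IARS2 was the only mitochondrial gene to change against 1 cGy at any dose in either line, 1 of 8 against 24.0% of all genes. The F test over doses passed for 4 of 16 cytosolic and 3 of 8 mitochondrial genes in GM15036, against 16.3% of all genes. In GM15510 it passed for 7 of 16, TARS1 among them, and 1 of 8, against 21.4%. A difference between the compartments was not tested. Several of the mitochondrial probe sets used were dim: FARS2, SARS2 and WARS2 had group means under 38 in every group, where the pseudocount of 4 and array noise weigh more, and their standard errors were larger. The other FARS2 set was brighter, with group means of 57.22 to 97.27. It gave -0.48 at 10 cGy in GM15036 (adjusted p = 0.0545), and its dose effect at 10 cGy differed between the lines by 0.81 (adjusted p = 0.0250), where the set used here gave 0.88 and did not pass (adjusted p = 0.362).

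**Figure D4:**
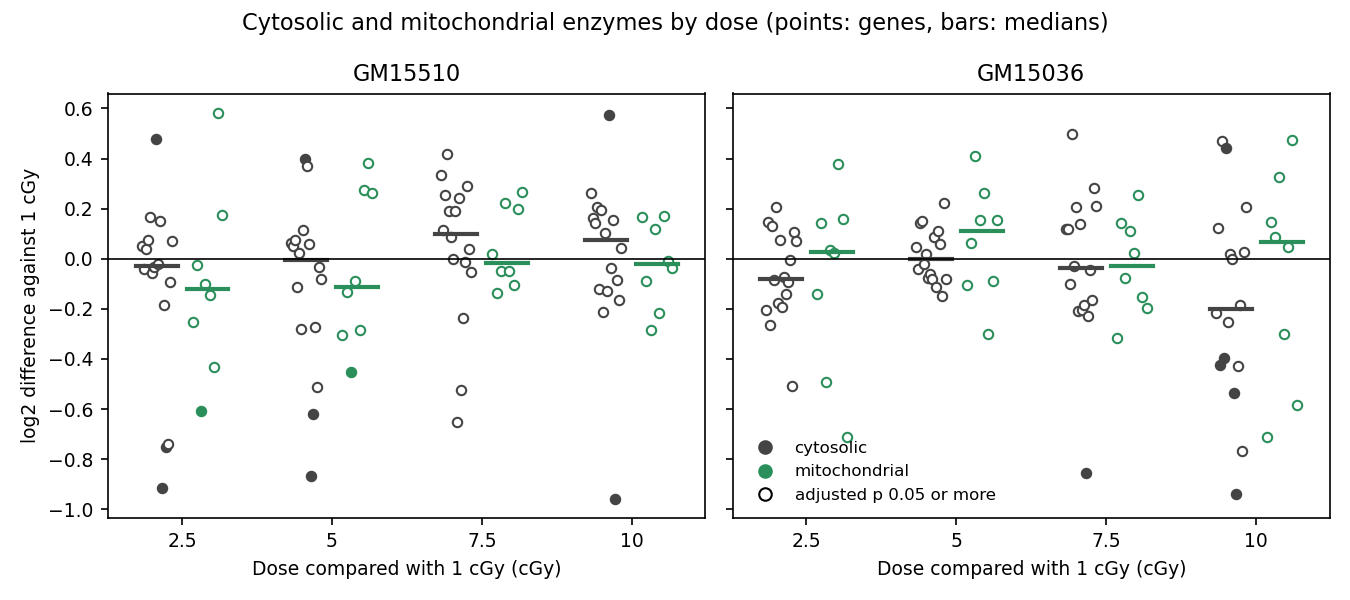
Log2 difference against 1 cGy by dose in cGy for 16 cytosolic (grey) and 8 mitochondrial (green) genes, with GM15510 on the left and GM15036 on the right; filled points have an adjusted p under 0.05 and bars are medians. Filled points are mostly grey, and the cytosolic median is lowest, -0.20, at 10 cGy in GM15036.

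Enzymes for the same amino acid in the 2 compartments were measured for 8 amino acids. NARS1 had 0.57 and NARS2 -0.22 at 10 cGy in GM15510, and in GM15036 NARS1 had -0.53 and NARS2 -0.30. YARS1 had 0.21 and YARS2 -0.58 at 10 cGy in GM15036, and FARSA, the alpha subunit of the cytosolic phenylalanine enzyme, had 0.47 while its mitochondrial counterpart FARS2 had -0.71. Of these values only those of NARS1 passed the test.

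WARS1, which loads tryptophan, had 0.03 at 10 cGy in GM15036 and -0.17 in GM15510 in its brighter probe set, and did not pass at any dose. Its other probe set had 13.3, 30.9 and 54.3 at 10 cGy against 67.4, 62.0 and 65.1 at 1 cGy in GM15036. The difference was -1.07 ± 0.24 (adjusted p = 0.00246), and the lower 2 of the 3 arrays at 10 cGy are among the 5 dimmest arrays of the study. The probe sets of WARS1 therefore disagreed. An interferon element, GAAA, any 2 bases and GAAA, was found in 1 of the 28 genes with a window (3.57%), against 4.38% of all genes, and that gene was WARS1, where it lies 55 to 46 bases before an annotated start.
WARS1, chr14:100375383-100375412, minus strand: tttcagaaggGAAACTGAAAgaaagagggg

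More genes passed the test between the lines than any comparison of doses. That test set 15 arrays of each line side by side, against 3 in a dose group, so the precision is unlike. Averaged over the 5 doses, 9 of 25 genes were higher and 8 lower in GM15510 than in GM15036. Over all genes 48.7% differed, 20.2% higher and 28.5% lower. With a line from 1 donor on each side, the test speaks of the arrays of these lines only. The median difference was 0.07 over the 25 genes and -0.08 over all genes tested, and 12 of the 17 genes had the same sign at all 5 doses.

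TARS1 in the 15 arrays of GM15510 had a lowest signal of 457, a median of 758 and a highest of 914, against 318, 382 and 418 in GM15036. The lines did not overlap, and the difference was 0.84 ± 0.04 (adjusted p = 5.01e-19). The GM15510 arrays here include those of the TARS1 fall named beforehand. GARS1 likewise did not overlap, with 651, 800.2 and 914 in GM15510 against 428, 578 and 638 in GM15036 and a difference of 0.50 ± 0.04 (adjusted p = 1.91e-12). RARS1 differed by 0.70 ± 0.09 (adjusted p = 2.33e-08), but its difference was near 0 at 2.5 cGy (-0.02) and 5 cGy (0.00) and 1.66 at 10 cGy. Also higher in GM15510 were FARS2 (0.53), EPRS1 (0.39), AIMP1 (0.30), KARS1 (0.30), NARS1 (0.27) and NARS2 (0.19).

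AARS1, which loads alanine, was lower in GM15510 by 0.47 on the log2 scale (-0.47 ± 0.07, adjusted p = 1.48e-06), with a median of 178 in GM15510 and 257 in GM15036. CARS1, which loads cysteine, had a median of 765 in GM15510 and 1026 in GM15036 and a difference of -0.38 ± 0.04 (adjusted p = 3.00e-10). The others that were lower were SARS2 (-0.48), LARS1 (-0.38), LARS2 (-0.33), HARS1 (-0.32), FARSA (-0.26) and YARS1 (-0.22). The 2 AIMP1 probe sets disagreed, with 0.30 in the set used here and -0.23 in the other, the brighter one (adjusted p = 7.11e-06). Further probe sets gave -0.34 for CARS1, 0.35 for KARS1, 0.33 for FARS2, and 0.51 and 0.22 for EPRS1, of which the last did not pass. LARS2 had 0.00 in its other set, and WARS1 0.56 in its other set against 0.07 in the brighter. The split of 9 higher and 8 lower depended on scaling. With each unscaled array centred on its median, 11 genes were higher and 2 lower, where 42.5% of all genes differed. Where centring followed scaling, 12 were higher and 5 lower, against 45.1% of all genes.

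**Figure D5:**
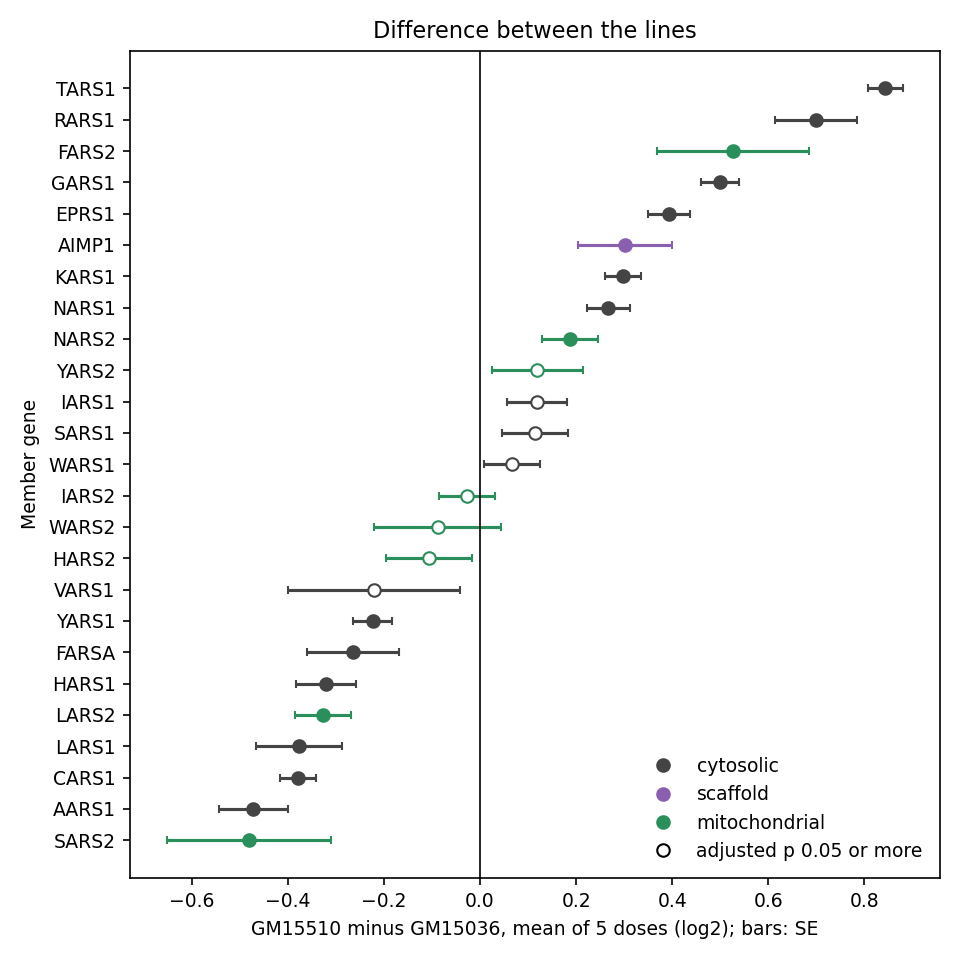
Difference of GM15510 minus GM15036 averaged over the 5 doses, in log2 with SE bars, for the 25 genes in order of size; filled points have an adjusted p under 0.05 and the colour gives the compartment. TARS1 (0.84) and RARS1 (0.70) are at the top and AARS1 (-0.47) and SARS2 (-0.48) at the bottom.

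The 16 genes that did not pass the test against 1 cGy at any dose in either line were AARS1, AIMP1, CARS1, FARS2, FARSA, HARS2, IARS1, LARS1, LARS2, NARS2, SARS2, VARS1, WARS1, WARS2, YARS1 and YARS2. Their differences against 1 cGy ranged from -0.77, for VARS1 at 10 cGy in GM15036, to 0.58, for WARS2 at 2.5 cGy in GM15510. VARS1, which loads valine, had group means of 13.38 to 26.21, so its standard error of 0.40 was the largest of all the genes. CARS1 ranged over 0.55 on the log2 scale across the 10 group means, with a median SD of 0.06 within groups.

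Genes that respond with the synthetases to amino acid shortage were looked at as a neighbouring list. Of 28 such genes 26 were tested, and the shares of all genes that changed are those given above, 6.16% at 10 cGy in GM15510 and 11.7% at 10 cGy in GM15036. At 10 cGy in GM15510, 2 rose and 1 fell, with a median of 0.05: ATF4 itself rose by 0.44 ± 0.10 (adjusted p = 0.00510), the mTOR inhibitor DDIT4 rose by 0.52, and the folate enzyme MTHFD2 fell by 0.27. At 10 cGy in GM15036, 1 rose and 1 fell, with a median of 0.02: ATF4 rose by 0.36 ± 0.10 (adjusted p = 0.0136), and ASNS, the asparagine synthetase, fell by 0.52 ± 0.12 (adjusted p = 0.00300). ATF4 in GM15036 depended on scaling: it was -0.27 (adjusted p = 0.232) with each unscaled array centred on its median, where ATF4 in GM15510 was 0.48 (adjusted p = 0.167). Of the 7 measured synthetases whose promoters hold the element, GARS1 and NARS1 fell at 10 cGy in GM15036, and the other 5 lay between -0.58 for YARS2 and 0.12 for CARS1. At 2.5 cGy in GM15510, XPOT, the nuclear exporter of tRNA, fell by 0.57 (adjusted p = 0.0125), and 0 of the 26 rose. At 7.5 cGy, ATF4 fell in GM15510 (-0.37) and TRIB3, a pseudokinase, rose in GM15036 (0.77). Between the lines, 1 of the 26 genes was higher and 11 lower in GM15510, with a median of -0.23, against 20.2% higher and 28.5% lower over all genes.

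Of 8 elongation factors 5 were tested. EEF1D, which reloads the factor that brings loaded tRNA to the ribosome, rose at 10 cGy in both lines, by 0.34 in GM15510 and by 0.71 in GM15036; with each unscaled array centred on its median EEF1D had 0.38 and 0.05 there and did not pass. EEF2, the translocation factor, rose at 10 cGy in GM15510 (0.74) and had -0.32 in GM15036, which did not pass. EEF1D also rose at 7.5 cGy in GM15036 (0.40). In GM15510, EEF1A1, which brings loaded tRNA to the ribosome, rose at 2.5 cGy (0.47), which turned to -0.31 with that centring and -0.095 with quantile normalization, and TUFM, its mitochondrial counterpart, fell at 2.5 cGy (-0.30) and 5 cGy (-0.38). Of 20 genes of tRNA processing 17 were tested. TRMT5 (1.53) and ADAT1 (0.76), which modify tRNA, rose at 10 cGy in GM15510, and PUS1, a pseudouridine synthase, rose in GM15036 (0.64), where that centring gave 0.06. TRMT61A, a tRNA methyltransferase, fell at 2.5 cGy in GM15510 (-1.20). Of 11 interferon targets 8 were tested, and GBP1, a guanylate-binding protein, fell at 2.5 cGy in GM15510 (-0.45) and also at 10 cGy in GM15036 (-0.53), while TAP1, a peptide transporter, rose at 7.5 cGy in GM15510 (0.58).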

How the data were processed

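RNA of 30 samples, 3 for each of 10 groups of line and dose, was measured on Affymetrix arrays. The deposited values are linear signal intensities that the authors made with MAS5, per the submitters' processing notes (version not given). Labelling used Affymetrix 3-prime IVT chemistry, per the labels. Arrays were not at a common level, so each was scaled to a trimmed mean (2nd to 98th percentile) of 50.9. A pseudocount of 4 was added, log2 taken, and probe sets kept above the 40th percentile of mean log2 value (3.64). limma 3.58.1 in R 4.3.3 fitted the 10 groups, with an intensity trend and two-sided tests (20 residual and 12.3 prior degrees of freedom); each adjusted p is limma's over all 13331 probe sets. It was checked on simulated data. Of 22283 probe sets, 19071 had 1 symbol. A gene's probe set was the one with the highest mean, with sets ending in _x_at or _s_at only for lack of others. Members that changed at 10 cGy, and TARS1, are given array by array, other changed members by group means. Members and lists were chosen with earlier results of these data known. The alternatives were quantile normalization, median centring with and without scaling, pseudocounts of 1 and 16, no filter and a 60th percentile filter, no trend, brightness as a covariate, a block for replicate numbers, and each array left out. A fit without the 5 dimmest arrays was added after seeing the data.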

Additional observations from a re-analysis of the deposited data

Results flagged for a closer look

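These results were singled out because the dose effect, against 1 cGy, differed between the lines by a test of the difference itself, given as GM15510 minus GM15036. At 10 cGy NARS1 differed by 1.11, with a rise in GM15510 and a fall in GM15036, and the value lay between 1.09 and 1.80 over the 10 alternative settings. At 10 cGy RARS1 differed by 0.90 and EPRS1 by 0.57. Both fell in GM15036 and did not pass in GM15510. The other tested EPRS1 probe sets gave 0.32 and -0.19 for this difference and did not pass. At 10 cGy TARS1 differed by -0.77 and at 2.5 cGy by -0.74, with falls in GM15510. The 10 cGy value rests on the fall named when the gene list was drawn up and is a description. The 2.5 cGy value shares the 1 cGy arrays of that fall. At 5 cGy IARS2 differed by -0.86, with a fall in GM15510 and 0.41 in GM15036, which did not pass. At 5 cGy KARS1 differed by 0.46, where its other probe set gave 0.03 and did not pass. The groups of arrays also differed in brightness, whose part in these differences was not tested beyond the settings given above.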

How the results depend on the processing

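NARS1 at 10 cGy in GM15510, TARS1 at 2.5 cGy in GM15510, and NARS1, RARS1, EPRS1 and GARS1 at 10 cGy in GM15036 passed all 10 planned settings and all 30 fits without an array. For EPRS1 this holds for the probe set used here, and its other tested sets did not pass. Scaling moved the counts most. Centring each unscaled array on its median shifted the median of all probe sets by -0.50 at 2.5 cGy in GM15510 and -0.38 at 10 cGy in GM15036. It turned KARS1 to -0.30 at 2.5 cGy and -0.023 at 5 cGy in GM15510, and HARS1 to -0.19 at 10 cGy in GM15036. Under it 17 members changed at 2.5 cGy (44.8% of all genes) and 7 at 5 cGy in GM15510 (15.5%), all lower. At 10 cGy in GM15036, 18 changed (34.1%), all lower. The F tests for GM15510, GM15036 and their interaction passed for 18, 13 and 19 members (49.4%, 28.3% and 46.3% of all genes). Centring after scaling gave 9 at 10 cGy in GM15036 (17.8% of all genes), all lower. With brightness as a covariate 1 member passed at 2.5 cGy in GM15510 (74 of all 8103 genes) and 1 at 5 cGy (134 genes). The F test there passed for 5 members (1096 genes). Without an intensity trend 0 passed at 7.5 cGy in GM15036, where RARS1 had an adjusted p of 0.0506. Without the 5 dimmest arrays, 2 members passed at 5 cGy in GM15510 (249 of all 8103 genes) and 1 at 2.5 cGy in GM15036 (84 genes). That fit leaves 1 array at 2.5 cGy in GM15510 and 1 at 10 cGy in GM15036, so no counts are given for these groups. The causes were not tested. Leaving out single arrays gave 1 to 5 members at 5 cGy and 0 to 1 at 7.5 cGy in GM15510, and 0 to 1 at 7.5 cGy and 4 to 6 at 10 cGy in GM15036. With all arrays, 3.92%, 1.79%, 3.18% and 11.7% of all genes changed in these comparisons, in the same order.

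Replicate numbers did not pair the arrays: over 60 same-numbered pairs the deviations correlated between -0.06 and 0.10, and 12 of 30 arrays correlated best with their own number. The replicate block left 3 members at 5 cGy in GM15510 in place of 4 (297 of all 8103 genes). It left 6 at 10 cGy in GM15036 in place of 5 (916 genes), and 7 in the GM15510 F test in place of 8 (1648 genes). It ended the IARS2 call at 5 cGy in GM15510 (adjusted p = 0.0624) and the KARS1 difference of the lines at 5 cGy (adjusted p = 0.0760).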
